A study of Mus musculus with 42 samples.

Results

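HOXC10 sites gained at day 4 are places in the mouse genome where HOXC10 was called as bound on day 4 of a motor neuron differentiation and had not been called on day 3. They were chosen by measured values. The 10000 day 4 HOXC10 events with the most ChIP reads on chromosomes 1 to 19 and X were taken, and those with no day 3 HOXC10 event within 100 bp were called gained. This left 2685 gained sites, and the other 7315 of the 10000, which had a day 3 event within 100 bp, are called kept sites. The whole day 4 list held 22027 events, 22024 of them on these chromosomes, and the 17 event lists used here held 753111. The series has 42 samples in 23 groups, and each list is 1 ChIP-seq target in 1 condition with its libraries pooled.

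Hox genes encode homeodomain transcription factors that give cells along the body axis their regional identity, and in the spinal cord they set which motor neuron types form at which level. HOXC10 belongs to the posterior factors and is known for its part in lumbar motor neurons of the limb level. Hox proteins bind short AT-rich sequences, and the TALE homeodomain proteins PBX and MEIS bind next to many of them and add to their sequence preference. Promoters of widely expressed genes are commonly rich in CpG dinucleotides, while the control regions of developmental genes often lie far from the gene start.

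All libraries came from embryoid bodies (EBs) of mouse Ainv15 embryonic stem cells. Each line carries a single doxycycline (Dox)-inducible copy of a tagged Hox gene and is therefore a model of forced expression in an engineered line. Day 3 and day 4 EBs had received retinoic acid and SAG, an agonist of the hedgehog pathway, from the start, and Dox from day 2, for 24 h and 48 h respectively. The 4 day 4 HOXC10 libraries were made with an antibody to Flag (F1804) in iFlag.Hoxc10 cells. Of the 3 day 3 HOXC10 libraries, 2 were made in the same way and 1 with the antibody ab15828 in iHoxc10.V5 cells. HOXC6 and HOXC9 were profiled at day 3 and day 4, and in EBs that had received 12 h of Dox and no patterning signal, with 2 libraries in each group. PBX was profiled at day 4 in iFlag.Hoxc9 and iFlag.Hoxc10 cells, and MEIS at day 3 in iHoxc6.V5, iHoxc9.V5 and iHoxc10.V5 cells, with 1 library in each group. The day 3 lists of HOXC8, HOXA9, HOXD9 and HOXC13 pool 2 libraries each. Both HOXC8 libraries came from an iFlag line, while each of the other three lists joins 1 Flag library with 1 made with the antibody ab9110 in an HA-tagged line (iHoxa9.HA, iHoxd9.HA or iHoxc13.HA).

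The lists being compared were not called under the same conditions. The 4 day 4 HOXC10 libraries held 22.8 to 27.1 M reads with a signal fraction, the part of reads the caller assigned to binding, of 0.047 to 0.056. The 3 day 3 libraries held 5.04, 18.2 and 21.8 M reads with signal fractions of 0.017, 0.041 and 0.161. The caller used a control library of 4.72 M reads for all day 4 lists, scaled up 4.79 to 5.43 times for the HOXC10 libraries, and one of 20.6 M reads for the day 3 HOXC10 list. The labels describe an input from iFlag.Hoxc8 cells at day 4 and an anti-Flag ChIP from iHoxc10.V5 cells at day 3, and which of them served the day 4 lists is not given in the sources used here. The kind of control behind the log2 folds below is therefore not known. The day of differentiation, the control library, the read depth, the signal fraction and the mix of tags and antibodies changed together. Their parts in a gain therefore cannot be told apart. The lists hold no values per library, so the intervals below are 95% Wilson intervals of a share or 95% Newcombe intervals of a difference of 2 shares. They cover counting error only and take sites as independent, and they do not cover the spread between differentiations.

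Windows around 9 gained sites follow, chosen for a motif or for their position and therefore not typical of the whole set. First come 5 of the 6 gained sites with the highest read counts that hold TTTAT, the core preferred by posterior Hox factors, on either strand within 20 bp. Over the set, 20.3% of gained sites held TTTAT within 50 bp, and 5.61% of those within 1 kb of a protein-coding start. The windows are 61 bases of build mm10 on the plus strand, 5′ to 3′, with TTTAT or its reverse complement in capitals.
Clmn, chr12:104855661-104855721: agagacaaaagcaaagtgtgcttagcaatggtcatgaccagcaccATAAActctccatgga
Arl4a, chr12:39991450-39991510: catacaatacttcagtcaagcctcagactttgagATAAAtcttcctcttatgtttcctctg
1810010D01Rik, chr7:145159436-145159496: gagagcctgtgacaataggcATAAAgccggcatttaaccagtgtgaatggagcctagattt
Insc, chr7:115291180-115291240: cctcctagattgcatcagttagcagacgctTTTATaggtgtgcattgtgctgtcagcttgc
Rbm33, chr5:28316938-28316998: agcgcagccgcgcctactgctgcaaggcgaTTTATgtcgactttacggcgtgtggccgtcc
The name before each window is the nearest protein-coding gene. The first 4 sites lay 9385 to 547516 bp from that gene's start, in an intron of Clmn or outside protein-coding genes, and the site at Rbm33 lay 153 bp upstream of its start. They had 346.7, 345.8, 341.0, 335.2 and 313.1 estimated ChIP reads. The sites nearest to Arl4a and 1810010D01Rik were only 107 and 111 bp from a day 3 event, just past the limit of the rule.

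The next 4 windows are the strongest gained sites within 1 kb of a protein-coding start that are not shown above and lie in no exon. Capitals mark each CG dinucleotide and TTTAT on either strand.
Zfp503, chr14:21988680-21988740: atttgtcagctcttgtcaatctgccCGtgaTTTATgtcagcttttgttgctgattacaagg
E030025P04Rik, chr11:109145111-109145171: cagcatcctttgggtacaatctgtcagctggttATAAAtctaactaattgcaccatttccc
Sprtn, chr8:124897778-124897838: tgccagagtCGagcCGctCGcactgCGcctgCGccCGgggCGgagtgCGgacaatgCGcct
Pno1, chr11:17211715-17211775: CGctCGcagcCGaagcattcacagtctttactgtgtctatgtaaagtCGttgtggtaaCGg
The 4 windows differ among themselves. The sites at Zfp503, which encodes a zinc finger protein, and at E030025P04Rik lay 891 bp downstream and 772 bp upstream of the start, held TTTAT and had MEIS events from all 3 lines within 100 bp. The sites at Sprtn, which encodes a protease of DNA-protein crosslink repair, and at Pno1, a ribosome assembly factor, lay 78 and 177 bp upstream of the start. Their windows held 9 and 5 CG dinucleotides and no TTTAT, and no MEIS event lay within 100 bp.

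Gained sites were weaker than kept sites, as the ranking by read count shows. Their median was 148.5 estimated reads, with a range of 124.6 to 492.6, while kept sites had a median of 188.3 and reached 3164.7. These values come from the list that chose the sites and are given as a description. The strongest 1000 events held 14 gained sites, or 1.40%, and the weakest 1000 held 439, or 43.9%. At the limit of the rule, events 10000 and 10001 both had 124.6 reads. On the distance side, 34 gained sites lay 101 to 110 bp from a day 3 event and 42 kept sites lay 91 to 100 bp from one. In all, 109 gained sites (4.06%) lay 101 to 150 bp from one. Most gained sites were far from that limit, with a median of 36098 bp to the nearest day 3 HOXC10 event. By chromosome, the gained share of top events ran from 6.98% on X, with 3 of 43, to 40.3% on chromosome 17, with 150 of 372.

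**Figure D1:**
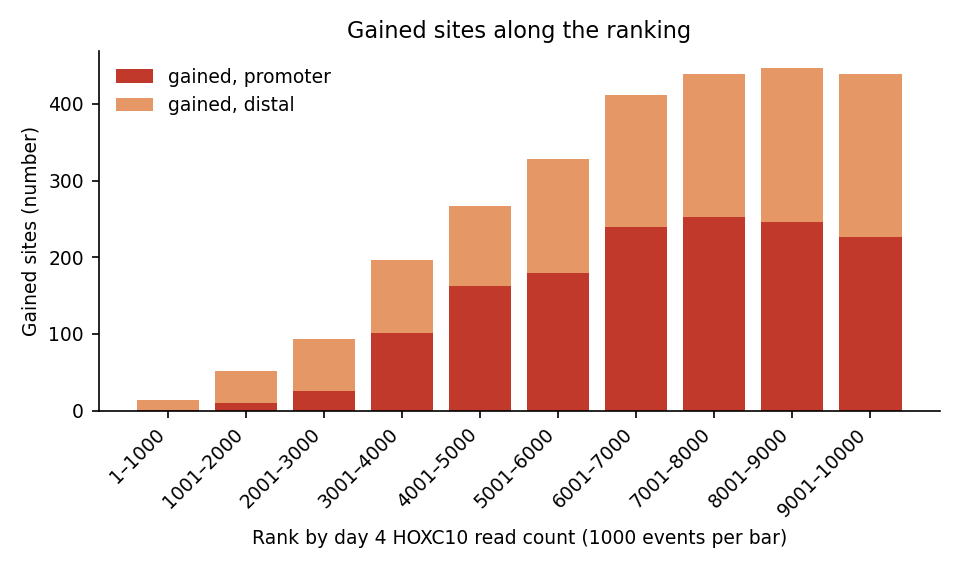
Number of gained sites in each 1000 events of the day 4 HOXC10 ranking by read count, split into sites within 1 kb of a protein-coding start (dark) and distal sites (light). Gained sites rise from 14 in the strongest 1000 events to 439 in the weakest, and promoter sites make up more than 50% of them from rank 3001 on.

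Gained sites lay at promoters far more often than kept sites. Of 2685 gained sites, 1445 (53.8%, interval 51.9 to 55.7%) were within 1 kb of a protein-coding start, against 197 of 7315 kept sites (2.69%). The difference was 51.1 percentage points (49.2 to 53.0), with the gained share higher on 19 of 20 chromosomes. The exception was X, whose 3 gained sites were all distal. At positions moved by 10 kb, the promoter share was 3.09% for gained and 1.12% for kept sites. The median distance to the nearest protein-coding start was 541 bp for gained and 93360 bp for kept sites. With the starts of all annotated transcripts, the shares were 63.9% and 8.50%.

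The gained promoter sites were centred just downstream of the start. Of the 1445, 1092 (75.6%) lay within 250 bp, 923 (63.9%) were at or downstream of the start, and the median position was 71 bp downstream. By the annotation, 854 of them (59.1%) were in an exon of a protein-coding gene and 241 (16.7%) in coding sequence. At 303 (20.97%), at least 2 protein-coding starts were within 1 kb of the site. Of all protein-coding starts, 12.7% had another start within 1 kb. The 2 shares are not like for like, since starts on either side of a site can be more than 1 kb apart. The 1240 distal gained sites also lay closer to genes than the 7118 distal kept sites, with a median distance to a protein-coding start of 51917 bp against 98745 bp. Of the distal gained sites, 21.9% were within 1 kb of the start of any annotated transcript, against 5.97% of the distal kept sites, a difference of 15.9 points (13.6 to 18.3). In exons of protein-coding genes the shares were 10.5% and 2.50%, 7.98 points apart (6.35 to 9.84), and in coding exons 4.19% and 0.31%. Introns held 39.6% against 46.3%, a difference of -6.71 points (-9.63 to -3.73). Outside protein-coding genes the shares were 49.9% and 51.2%, and the interval of that difference, -4.29 to 1.74 points, held 0.

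**Figure D2:**
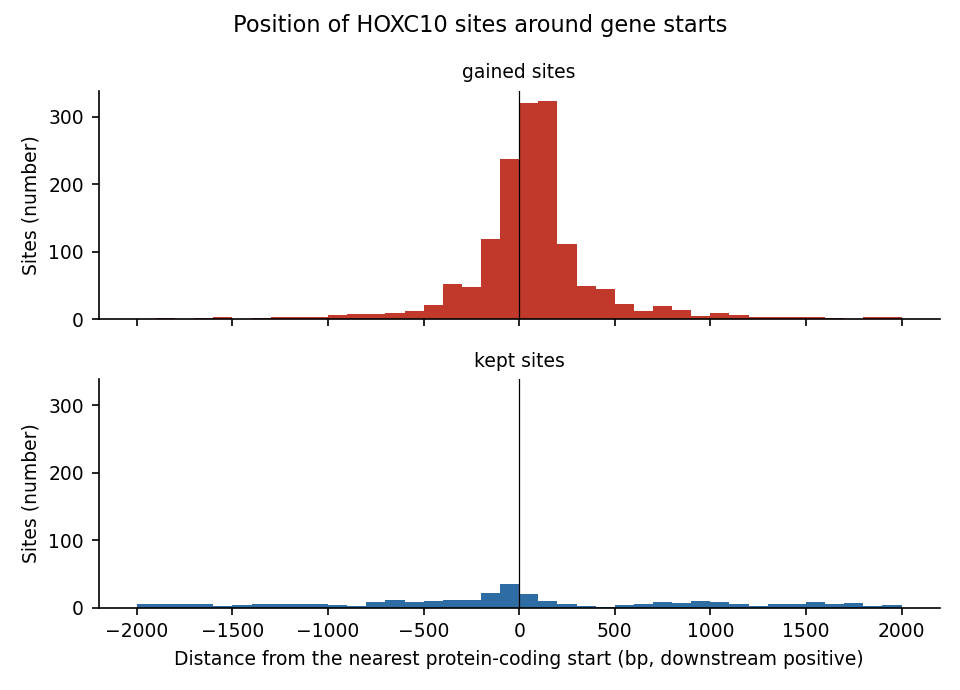
Number of gained (top) and kept (bottom) HOXC10 sites in bins of 100 bp by distance from the nearest protein-coding start, with downstream distances positive and the same vertical scale in both panels. Gained sites pile up close to the start, mostly downstream of it, while kept sites are few throughout.

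Base composition separated the promoter sites from the rest. Over 201 bases, the median GC content was 64.7% at gained promoter sites, 48.8% at gained distal sites and 44.8% at kept sites. The ratio of observed to expected CpG had medians of 0.87, 0.35 and 0.26. Among all 21755 protein-coding genes, 8027 had a CpG-rich start region, taken as a ratio of at least 0.6 and a GC content of at least 55% from 250 bp before to 50 bp after the start. A gained site lay within 1 kb of 14.6% of these starts (13.8 to 15.4%) and of 3.98% of the others (3.67 to 4.32%).

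The log2 fold over control differed between the classes as well. Its median was 2.36 at gained promoter sites, 5.01 at gained distal sites and 5.15 at kept sites, and 787 gained promoter sites (54.5%) lay under 3, against 432 (34.8%) of the gained distal and 1856 (25.4%) of the kept sites. These folds rest on few control reads. The median estimated control count was 1.3 reads at gained promoter sites, 0.9 at gained distal sites and 0.8 at kept sites. The promoter difference was 41.0 points (39.2 to 42.9) when only day 4 events with a log2 fold of at least 3 were ranked, and 38.9 points (36.9 to 40.9) when events were ranked by q-value. The part of the shallow control in the promoter calls was not tested.

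Among their top events, HOXC6 and HOXC9, called on the same day against the same control, gave no such promoter set. By the same rule, 1378 of the top HOXC6 events and 212 of the top HOXC9 events at day 4 had no event of their own factor at day 3. Of these, 20 (1.45%) and 1 (0.47%) lay at promoters, so that the HOXC10 share was higher by 52.4 points (50.3 to 54.3) and 53.3 points (50.5 to 55.3). In the reverse direction, 2549 of the top day 3 HOXC10 events had no day 4 event, and 37 (1.45%) were at promoters. Of the gained HOXC10 sites, 76 (2.83%) had a gained HOXC6 site within 100 bp and 21 (0.78%) had a gained HOXC9 site. These shares are limited by the sizes of the gained HOXC6 and HOXC9 sets, and no share at kept sites is given for comparison. In the whole day 4 lists, HOXC6 had an event at 34.3% of gained HOXC10 sites and HOXC9 at 42.9%. Seen from the other sets, 5.59% of the gained HOXC6 sites and 10.8% of the gained HOXC9 sites had a gained HOXC10 site within that distance. Signal fractions were 0.304 to 0.311 for day 4 HOXC6 and 0.14 to 0.188 for day 4 HOXC9, above those of day 4 HOXC10. The top events also reach less far down their lists, which held 69285 and 44020 events against 22024 for HOXC10. Over the whole lists, day 4 HOXC9 had an event at 367 of the 1445 gained HOXC10 promoter sites, and day 3 HOXC9 at 27. For HOXC6 the counts were 186 and 128. The day 4 events at these sites lay low in their lists, at median ranks of 79.2% for HOXC9 and 74.7% for HOXC6.

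Other HOX factors were found at gained sites less often than at kept sites. Within 100 bp of a gained site, the day 4 HOXC9 list held an event at 42.9% (41.1 to 44.8%), against 90.6% at kept sites, a difference of -47.6 points (-49.6 to -45.6). Day 4 HOXC6 had an event at 34.3% of gained and 88.3% of kept sites, -53.9 points apart (-55.9 to -52.0). At least 1 of these 2 factors was present at 52.3% of gained sites and both at 25.0%. At positions 10 kb away, the shares at gained sites were 0.34% for HOXC9 and 0.48% for HOXC6.

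These shares differed between promoter and distal sites. Day 4 HOXC9 was present at 63.4% of gained distal sites (60.7 to 66.02%) and at 25.4% of gained promoter sites (23.2 to 27.7%). For day 4 HOXC6 the shares were 59.4% and 12.9%. Among distal sites alone, the gained share stayed below the kept share, with differences of -27.6 points for HOXC9 (-30.4 to -24.9) and -29.1 points for HOXC6 (-32.0 to -26.3). Where day 4 HOXC9 did have an event at a gained promoter site, it was a weak one, with a median of 47.9 reads and a median rank 79.2% of the way down its list. At gained distal sites the matched HOXC9 events had a median of 150.9 reads and a rank of 26.8%.

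At day 3, 60.3% of gained HOXC10 sites already had an event of another full-length HOX factor within 100 bp, against 99.6% of kept sites. This was 80.4% of gained distal and 43.0% of gained promoter sites. Day 3 HOXC9 was present at 24.8% of gained and 95.5% of kept sites, a difference of -70.7 points (-72.4 to -69.0). It was found at 51.5% of gained distal sites and 1.87% of gained promoter sites. Day 3 HOXD9 was the HOX list with the largest share at gained promoter sites, 33.5% (484 of 1445), and 9.68% of its own events were at promoters, the highest share among the full-length HOX lists after day 4 HOXC10, at 17.2%. In EBs without patterning, HOXC9 was present at 14.9% of gained and 51.8% of kept sites.

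**Figure D3:**
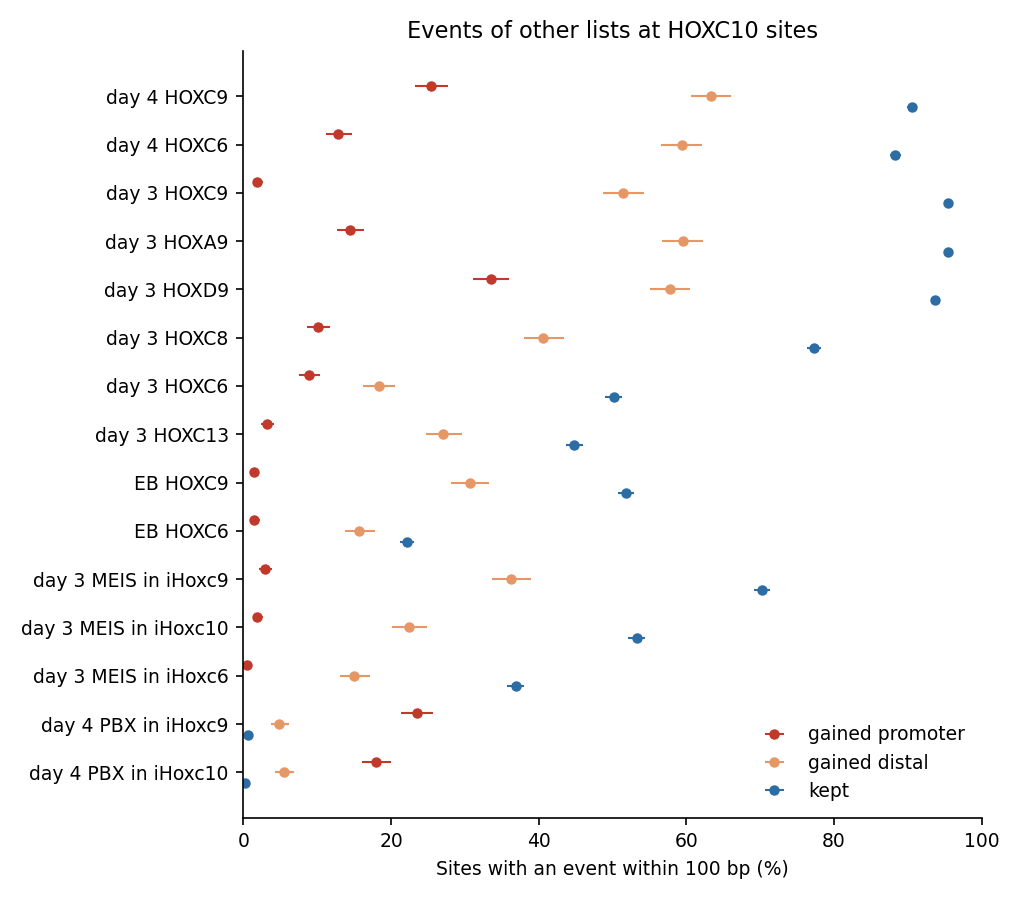
Share of HOXC10 sites with an event of another list within 100 bp, in percent, for gained promoter (red), gained distal (orange) and kept sites (blue), with 95% Wilson intervals as bars. In every HOX and MEIS list the order is kept, gained distal, gained promoter, and in both PBX lists it is reversed.

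PBX was the exception to the lower shares. The day 4 PBX lists are short, with 848 events in iHoxc10 and 1165 in iHoxc9 cells, each from 1 library with a signal fraction of 0.008 and 0.009. In iHoxc10 cells, PBX was present at 327 gained sites (12.2%) and 21 kept sites (0.29%), a difference of 11.9 points (10.7 to 13.19). In iHoxc9 cells, PBX was present at 399 gained sites (14.9%) and 42 kept sites (0.57%), a difference of 14.3 points (12.98 to 15.7). Both differences had the same sign on 19 of 20 chromosomes. Seen from the PBX lists, 38.6% of the events in iHoxc10 cells and 34.3% of those in iHoxc9 cells lay within 100 bp of a gained HOXC10 site.

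Promoters were common on both sides of this overlap. Of all PBX events, 69.7% in iHoxc10 and 75.7% in iHoxc9 cells were within 1 kb of a protein-coding start. Gained promoter sites had PBX from either line at 30.5%, gained distal sites at 8.15% and kept promoter sites at 5.58%. Among distal sites alone, the difference between gained and kept was 5.29 points (4.14 to 6.70) in iHoxc10 cells and 4.35 points (3.27 to 5.69) in iHoxc9 cells. Over all gained sites, the PBX share was lower in iHoxc10 (12.2%) than in iHoxc9 cells (14.9%), whose PBX list is the longer. At gained distal sites the order was the other way, with 5.48% and 4.84%. With 1 library per line, the comparison of the lines has no replicate check. The PBX lists and the day 4 HOXC10 list were called against the same control, and the part of that control in the overlap was not tested.

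MEIS events, by contrast, were far fewer at gained sites. In iHoxc10 cells MEIS was present at 11.4% of gained and 53.3% of kept sites, and the difference was -41.9 points (-43.5 to -40.2). The same shares in iHoxc9 cells were 18.3% and 70.2%, with -51.9 points between them (-53.7 to -50.1). MEIS in iHoxc6 cells was at 7.19% of gained and 36.9% of kept sites, and here the difference was -29.7 points (-31.1 to -28.2). All 3 differences had the same sign on 20 of 20 chromosomes. The lists differ in length, and with each limited to its 8154 strongest events the gained shares were 8.12%, 9.27% and 7.19% in iHoxc10, iHoxc9 and iHoxc6 cells. MEIS from any line was present at 41.8% of gained distal and 3.25% of gained promoter sites, against 76.0% of kept distal sites. MEIS was profiled at day 3, a day before the gained sites were called.

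Motif letters were counted on both strands within 50 bp of each site. TTTAT was found at 20.3% of gained and 53.4% of kept sites, a difference of -33.1 points (-34.9 to -31.1). TAAT, the core of central Hox factors, was found at 29.6% and 69.4%, and TTTAC, associated with HOXC13, at 11.7% and 25.9%, differences of -39.8 points (-41.8 to -37.8) and -14.2 points (-15.7 to -12.5). The PBX-HOX composite TGATTTAT was found at 47 gained sites (1.75%) and 7.67% of kept sites, a difference of -5.92 points (-6.68 to -5.10). TGATTTAT holds TTTAT, so these counts overlap. In windows of the same length 10 kb away from gained sites, the shares were 27.9% for TTTAT, 43.1% for TAAT, 16.3% for TTTAC and 0.60% for TGATTTAT.

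By class, TTTAT was found at 37.4% of gained distal sites, above the 29.4% of windows 10 kb away, and at 5.61% of gained promoter sites. Of windows of the same length centred on all protein-coding starts, 14.1% held it, and 4.31% of those at CpG-rich starts. Among distal sites, the difference between gained and kept was -16.2 points (-19.1 to -13.24). At least 1 of TTTAT, TAAT and TTTAC lay within 50 bp of 67.1% of gained distal, 21.2% of gained promoter and 89.4% of kept distal sites. The share was lower nearer to the start, from 74.2% of 977 gained sites over 10000 bp away through 40.7% of 263 sites at 1001 to 10000 bp and 22.7% of 353 sites at 251 to 1000 bp to 20.7% of 1092 sites within 250 bp. Over the same 4 steps, the share with a PBX event was 5.12%, 19.4%, 24.4% and 32.5%.

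Between gained and kept sites, letters common at promoters did not move together. CCAAT was at 10.4% of gained and 15.8% of kept sites, a difference of -5.49 points (-6.88 to -4.03). The GC box GGGCGG, the ETS-type core CCGGAAG and CGCATGCG, a motif of the factor NRF1, were more frequent at gained sites. Their differences were 12.7, 3.85 and 1.43 points. The rarer TGACGTCA and AAGATGGCG were also more frequent at gained sites, by 1.04 points (0.68 to 1.53) and 0.76 points (0.46 to 1.19). Gained promoter sites held CCAAT at 9.48%, GGGCGG at 21.7%, CCGGAAG at 6.64% and CGCATGCG at 2.56%. In windows centred on CpG-rich starts the shares were 14.6%, 53.5%, 11.5% and 2.17%. These windows are not matched to the sites, which lie up to 1 kb from a start and not only at CpG-rich ones. GGGCGG was at 5.89% of gained distal and 1.53% of kept distal sites. The motifs of this paragraph were added after values had been seen.

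**Figure D4:**
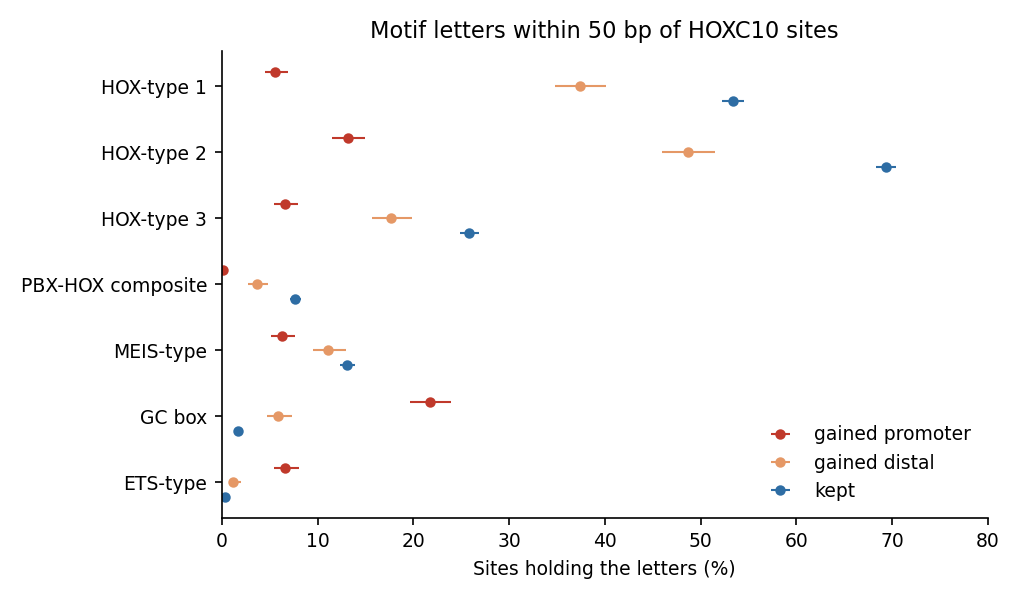
Share of HOXC10 sites with motif letters within 50 bp, in percent, by class with 95% Wilson intervals. HOX-type 1, 2 and 3 are TTTAT, TAAT and TTTAC, the composite is TGATTTAT, MEIS-type is TGACAG, the GC box is GGGCGG and ETS-type is CCGGAAG. HOX-type letters are most frequent at kept and least frequent at gained promoter sites.

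The 10 strongest gained sites were mostly distal. The strongest, at position 137520092 of chromosome 6 with 492.6 reads, lay in an intron of Eps8, which encodes a regulator of actin, 134784 bp from the start and 331295 bp from the nearest day 3 HOXC10 event. The next lay in an intron of Phactr2, a phosphatase and actin regulator, with 419.2 reads, and 266040 bp upstream of Ncam1, the neural cell adhesion molecule, with 405.4 reads. Introns of Pdzrn4 (396.2 reads), of Abcc8, which encodes a subunit of ATP-sensitive potassium channels (364.5), and of the contactin gene Cntn6 (360.3 and 354.3) followed. An intergenic site lay nearest to the zinc finger gene Zfp608 (370.7 reads). The site at Pdzrn4 was 221 bp from a day 3 event. All 10 had a day 4 HOXC9 event within 100 bp and 9 had a day 3 HOXC9 event, the exception being Btbd9.

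The site at Btbd9 was the only promoter among these 10. It lay in an exon, 74 bp downstream of the start, at position 30576414 of chromosome 17, with 357.6 reads and a log2 fold of 2.72, and PBX from both lines had an event within 100 bp. Of the 100 strongest gained sites, all with at least 235.8 reads, 21 were at promoters, 87 had a day 4 HOXC9 event, 67 a day 3 HOXC9 event and 51 TTTAT.

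The 8 strongest gained promoter sites were those of Btbd9, the RNA-binding protein gene Rbm33, Zfp503, Lyrm4, E030025P04Rik, Sprtn, Rad17 and Pno1, with 357.6 to 269.8 reads. Lyrm4 acts in iron-sulfur cluster assembly and Rad17 loads a checkpoint clamp onto DNA. Several were shared between divergent genes, since the site 183 bp upstream of Lyrm4 lay in an exon of Fars2, that 120 bp upstream of Rad17 in an exon of Ak6 and that at Pno1 in an intron of Wdr92. Log2 folds over control ran from 1.09 at Sprtn, where the control had 6.4 reads, to 3.17 at E030025P04Rik. Except at Zfp503 and E030025P04Rik, none of the 8 had a MEIS event or a day 3 HOXC9 event.

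A gained site had 2402 of 21755 protein-coding genes, or 11.0%, as its nearest gene, and a kept site 3259, or 15.0%. Of the 2402, 2182 were nearest to a single gained site and 43 to at least 3, and 767 were also nearest to a kept site. Zfp608 was nearest to the most gained sites, with 11 beside 44 kept sites, and none of the 11 was at its promoter. Pdzrn4 followed with 5 gained and 10 kept sites. Each of Ncam1, Btbd9, the Eph receptor gene Epha7, Skap2, Ptma, Abt1, the potassium channel gene Kcnh2, the RNA-binding protein gene Celf4, Klrb1b and Prdm8 was nearest to 4. Of these, Ptma, Abt1, Kcnh2 and Klrb1b had no kept site. Zfp703, Dph6 and Frmd4a, with 3 each, completed the 15 genes nearest to the most gained sites.

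A gained site lay within 1 kb of the start of 1716 protein-coding genes, or 7.89%. Most families of widely expressed genes examined were above that share. For CpG-rich starts as a whole the share was 14.6%. It held for 14 of 46 complex I subunit and assembly genes (30.4%), 21 of 78 mitochondrial ribosomal protein genes (26.9%), 12 of 50 proteasome subunit genes (24.0%), 12 of 54 translation initiation genes named Eif (22.2%) and 18 of 83 cytosolic ribosomal protein genes (21.7%). RNA polymerase subunit genes had 5 of 28 (17.9%), and their interval of 7.88 to 35.6% reached the share of all genes. Against the 14.6% of CpG-rich starts, only the intervals of the complex I and mitochondrial ribosomal protein genes lay wholly above. The intervals of the cytosolic ribosomal protein, proteasome, Eif and RNA polymerase genes reached that share. By comparison, 0 of 1135 olfactory receptor genes, 1 of 331 vomeronasal receptor genes and 0 of 53 keratin genes had a gained site at the start. These families were picked by name after values had been seen, and the counts are a description.

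Motor neuron identity genes (10.0%) and Hox genes (12.8%) were nearest to gained sites at shares close to the 11.0% of all genes. The share of motor column and pool genes was 35.7%, and all 3 lists were far more often nearest to kept sites. Nearest-gene shares here and below were not adjusted for the length of a gene or of its surroundings. A gained site lay within 1 kb of the start for 0 of the 10 identity, 0 of the 14 column and pool and 1 of the 39 Hox genes, against 7.89% of all genes. Of 14 motor column and pool genes, 5 were nearest to a gained and 12 to a kept site. Among them were Zeb2 with 2 gained sites, of up to 149.3 reads, and Etv1, Mecom and Nr2f2 with 1 each. Of 10 motor neuron identity genes, 1 had gained sites, the LIM homeodomain gene Isl1 (2, of 171.1 and 163.4 reads), while 7 had kept sites. Of 39 Hox genes, 5 had a gained and 18 a kept site. Hoxb2 had 2 gained sites, the stronger with 349.7 reads 9346 bp upstream of its start, and the Hoxb4 site, with 177.0 reads, lay 225 bp upstream of the start. Hoxd1 and Hoxc4 had 1 each.

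Cofactor, signalling and progenitor genes are read against the same 11.0%. Of 11 TALE genes, 4 had a gained site and 7 a kept site. Meis1 had 2 gained beside 23 kept sites, and Pknox2 and Pbx3 had 1 gained beside 5 and 12 kept sites. Of 17 retinoic acid pathway genes, 3 had a gained site, namely the dehydrogenase gene Dhrs3 and the receptor genes Rarb and Rxrg, and 11 a kept site. The Notch list had 3 of 19, with Dll1, Notch2 and Hes1. Of 21 ventral progenitor genes, 6 had a gained site, including Sox2 and Irx5 with 3 each and Foxa2 and Dbx2 with 1 each, and 17 a kept site. The pluripotency list had 2 of 20, Dppa4 and Esrrb, close to the share of all genes.

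Among neuronal genes, the list of cytoskeleton and synapse genes had the highest share, with 14 of 36 (38.9%) nearest to a gained site and 21 to a kept site. Within 1 kb of the start, 3 of these 36 genes (8.33%) had a gained site, close to the 7.89% of all genes. Ncam1 and Celf4 had 4 gained sites, the growth-cone gene Gap43 had 3 and the neurofilament gene Nefm 2. Of 28 neuronal differentiation factors, 8 had a gained site, with 3 at Myt1l and 1 at Insm1, Zfhx3 and Atoh1. In axon guidance, 10 of 36 semaphorin, slit and netrin genes had a gained site, including Robo1 with 3, Slit3 with 2, and Dcc and Unc5c with 1. Of 22 Eph receptors and ephrins, 2 did (9.09%, close to the 11.0% of all genes), Epha7 with 4 gained beside 12 kept sites and Efna3 with 1. For adhesion, 4 of 11 type II cadherins (Cdh6, Cdh8, Cdh10 and Cdh11, 1 site each) and Adgrl1 alone of 10 teneurin, latrophilin and FLRT genes had a gained site. Gfra1, Ntrk2 and Lifr did among 13 neurotrophic factor receptors, and Prdm8 and Gata2 among 24 interneuron factors. The shares of the teneurin group and of the interneuron factors were also close to that of all genes. Over all protein-coding genes the median number of gained sites per gene was 0.

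**Figure D5:**
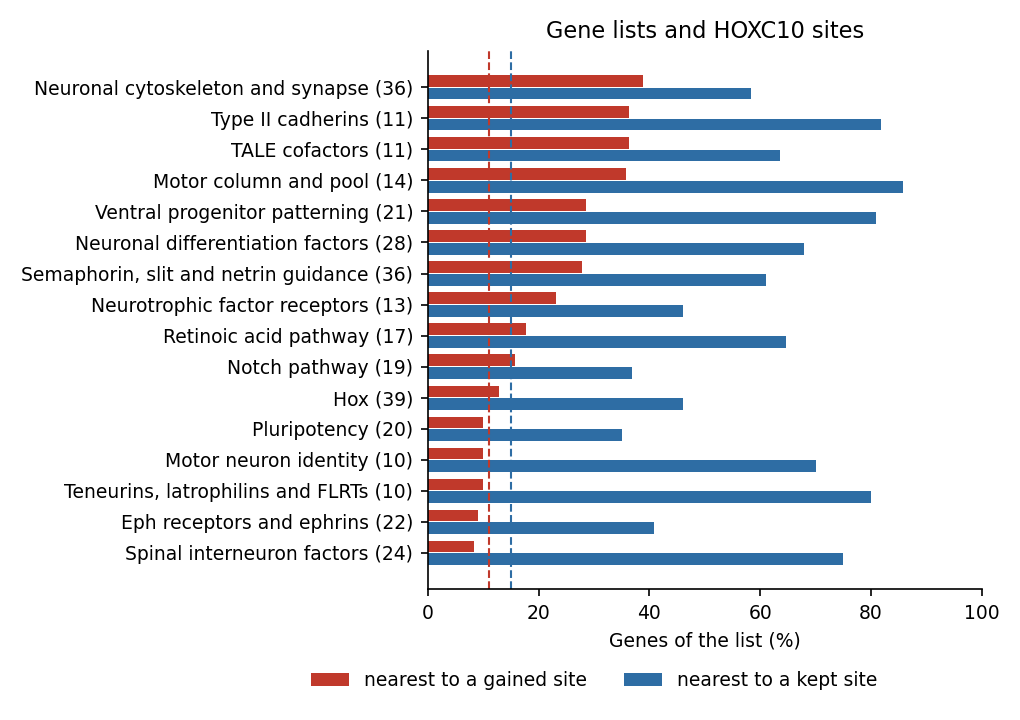
Share of the genes of each list, in percent, that were the nearest protein-coding gene of at least 1 gained (red) or kept (blue) HOXC10 site, with the number of genes in parentheses. Dashed lines mark the shares over all protein-coding genes, 11.0% for gained and 15.0% for kept sites. The kept share is the larger in every list.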

How the data were processed

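The authors aligned ChIP-seq reads to mm10 with Bowtie 1.0.1, leaving out reads that mapped to several places, and called events with MultiGPS over the pooled libraries of a condition at a q-value under 0.001. The deposited lists give for each event an estimated count of ChIP reads and of control reads, a log2 fold over control and the log2 of the q-value, which the authors' caller wrote and which was treated here as a score for ranking and filtering. Picard 2.8.2 and edgeR 3.22.5 are also named in the submitters' processing notes. Columns with the authors' edgeR comparisons between conditions hold fold changes and q-values and were not used, nor were the lists of the 4 chimeric factors or the position tracks. No event value per library was in the lists used.

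Events were ranked by estimated ChIP read count, ties by q-value, on chromosomes 1 to 19 and X, since the rule for these sites names the read count. Positions were checked against GRCm38: all 22024 deposited event sequences of the day 4 HOXC10 list were found within 300 bp of their event. Genes and starts are those of GENCODE mouse release 21, and a promoter site is within 1 kb of a protein-coding start. Events of 2 lists were shared within 100 bp. A difference of 2 shares was called when its 95% Newcombe interval excluded 0. No p-values are given, since the lists pool libraries. The functions were tested on simulated data. Python 3.11.15, numpy 2.4.6, pandas 2.3.3 and samtools 1.23.1 were used.

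Named genes are the 15 nearest to the most gained sites, those of the 10 strongest gained sites and the 8 strongest gained promoter sites, and of each gene list the 4 nearest to the most gained sites. The sites, gene lists and motifs were chosen with earlier results of these data known. A gene and a sequence that these rules select are not reported here.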

Additional observations from a re-analysis of the deposited data

Results flagged for a closer look

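The difference in promoter share between gained and kept sites was not alike among the factors profiled at both days. It was 51.1 points for HOXC10, 0.33 points (-0.24 to 1.13) for HOXC6 and -0.36 points (-0.79 to 1.80) for HOXC9. The HOXC10 difference exceeded that of HOXC6 by 50.8 points (48.7 to 52.8) and that of HOXC9 by 51.5 points (48.6 to 53.4), with intervals from the combined Newcombe bounds. The 3 factors differ in day 4 signal fraction (0.047 to 0.056 for HOXC10, 0.304 to 0.311 for HOXC6 and 0.14 to 0.188 for HOXC9). They also differ in the lowest read count of the top events used (124.6, 217 and 173.9). These counts pool 4 day 4 libraries for HOXC10 and 2 each for HOXC6 and HOXC9, so they are not on the same scale per library. The length of the day 4 list differs as well (22024, 69285 and 44020 events). Only the day 3 HOXC10 list includes a V5 library. The part of each of these in the difference was not tested.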

How the results depend on the processing

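All 15 differences between gained and kept sites kept their direction and an interval without 0 in all 173 alternatives run: ranking by q-value, the top 5000 or 20000 events, 50 or 500 bp without a day 3 event, a q-value under 1e-05, kept sites weighted over 10 bins of read count, other distances and motif windows, the 5000 strongest events of the other factor's list, and, chosen after seeing the data, distal sites only and events with a log2 fold of at least 3. The promoter difference ran from 37.1 points (top 20000) to 55.4 points (starts of all transcripts). Sizes of the other differences moved more. With the 5000 strongest events of the other list, which leaves fewer events to be shared, the differences were -24.6 points for day 4 HOXC9, -24.0 for day 4 HOXC6, -28.0 for day 3 HOXC9, -22.1 for day 3 HOXC6, -4.97 for HOXC9 in unpatterned EBs, and -24.9 and -28.1 for MEIS in iHoxc10 and iHoxc9 cells. PBX in iHoxc10 and iHoxc9 cells fell to 5.82 and 7.32 points among the top 20000 and to 7.85 and 9.13 points within 50 bp. At distal sites, beside the values given above, the differences were -44.4 points for day 3 HOXC9, -21.5 for HOXC9 in unpatterned EBs, -34.4 for MEIS in iHoxc9 cells, -21.2 for TAAT and -8.09 for TTTAC. Within 25 bp, TTTAC and TGATTTAT differed by -7.68 and -3.13 points. The counts moved with the list: 621 sites were gained among the top 5000 and 8270 among the top 20000. The genes nearest to a gained site numbered 591 and 5914 at these lengths, and 4974 genes had a start within 50 kb of a gained site.

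No paired analysis was possible because the lists pool their libraries and carry no replicate numbers, and leaving out a library was not run for the same reason. The limit of 5000 events was not run on the PBX lists, which are shorter. Depth limits the day 3 side: a site weak at day 3 is missing from that list at its read depth, and weak binding cannot be told apart from none. The day 3 HOXC10 list held 26873 events and the day 4 list 22027, and the day 3 list had the deeper control. Its libraries held 5.04 to 21.8 M reads, against 22.8 to 27.1 M at day 4. The part of depth in the gained calls was not tested.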
